A study of Mus musculus with 6 samples.

Results

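The 10 transcription factor genes that steer the choice between myeloid fates were followed through 2 ways of releasing mouse myeloid progenitors from self-renewal. They are Spi1 (which encodes PU.1), Elf1, Irf8, Gfi1, Klf4, Klf2, Egr1, Id1, Id2 and Zeb2, taken by name from the deposited table, so that they are 10 of its 27998 gene columns. All 10 had at least 1 unique molecular identifier (UMI, the tag that lets each captured transcript be counted once) in the cells kept, as did 15185 genes in all, and 8 of the 10 had a mean of at least 20 CPM, the UMIs of a gene per 1000000 UMIs of its library. Klf4 and Egr1 were below that level.

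The cells were Lys-GFP-ER-HoxA9 cells of strain C57BI/6, granulocyte-macrophage progenitors of the bone marrow immortalized by a HOXA9 protein fused to the hormone-binding part of an estrogen receptor (iGMPs). They carry a lysozyme-driven GFP reporter and grow in stem cell factor. In the CAF-1 OFF arm, a clone with an IPTG-inducible short hairpin RNA against Chaf1b, which encodes part of the CAF-1 complex that places histones on new DNA, received IPTG for 0, 48 or 96 h, with estradiol present throughout. In the HOXA9 OFF arm, a clone with a control hairpin was sampled at 0, 48 and 96 h after estradiol was withdrawn, which switches the fusion protein off and lets the cells mature towards neutrophils. Both 0 h libraries were grown with estradiol. Each group was 1 droplet library (10x Chromium, which reads the 3′ ends of transcripts) of sorted live cells from 1 culture of 1 clone, so no difference was tested between groups, sizes are described instead, and the arms cannot be told apart from their clones.

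The 6 libraries held 473 to 1510 cells after filtering and 3524285 to 5589486 UMIs. The median UMI count of a cell was 5956 to 6571 in CAF-1 OFF, and 8660, 3535.5 and 2043.5 at 0, 48 and 96 h in HOXA9 OFF. The limit of 10% mitochondrial UMIs removed 66.2% of the barcodes of the HOXA9 OFF 0 h library and 41.7% of those of the CAF-1 OFF 0 h library, against 0.198% to 18.3% in the others, and the counts and ratios that rest on the first are also given with the CAF-1 OFF 0 h library in its place. Of 7787 different barcode sequences, 34 were present in more than 1 library. All 8 progenitor markers examined, Cd34, Kit and Mpo among them, had UMIs in both 0 h libraries, where their sum was 7504 CPM in the CAF-1 OFF libraries and 6685 CPM in those of HOXA9 OFF. Chaf1b, the target of the hairpin, was at 35.6, 3.22 and 6.49 CPM in the CAF-1 OFF libraries and at 51.5, 15.3 and 1.13 CPM in those of HOXA9 OFF at 0, 48 and 96 h. It was thus lower than at 0 h after both treatments, also in the clone without the hairpin.

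PU.1 is an ETS-domain factor without which neither macrophages nor neutrophils form, and its dose biases progenitors towards monocytes when high. IRF8 binds DNA with PU.1 and favours monocytes and dendritic cells, whereas GFI1 is a repressor that favours granulocytes and opposes PU.1. KLF4, KLF2 and EGR1 are zinc finger factors linked to monocyte and macrophage identity, and EGR1 is also an immediate early gene that any strong stimulus switches on. ID1 and ID2 have no DNA-binding region and hold E proteins away from DNA, ZEB2 represses genes with E-box elements, and ELF1 is a broadly expressed ETS factor.

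In both arms most of the factors that passed 2-fold were higher than at 0 h, and the HOXA9 OFF arm held more of them and the larger ratios. Ratios are log2 ratios of CPM after adding 10 CPM to both sides, which understates the change of low genes, and a gene was counted when its ratio reached 2-fold. In CAF-1 OFF, 2 of 10 factors were at least 2-fold higher at 48 h, Gfi1 and Id1, and at 96 h 3 of 10 were, with Id2 joining them. None was lower. Among the 4789 genes whose mean was 20 CPM or more, 2.76% were higher and 0.0418% lower at 48 h, and 5.22% higher and 0.856% lower at 96 h. In HOXA9 OFF, 6 of 10 factors were higher at 48 h, namely Spi1, Irf8, Klf2, Egr1, Id1 and Id2, and none was lower, where 13% of all genes were higher and 19.6% lower. At 96 h 5 of 10 were higher, Irf8 having dropped out, and Gfi1 alone was lower. Under TMM or median-of-ratios scaling 8 were higher at 96 h, Irf8, Klf4 and Zeb2 joining, and with 50 CPM added 3 were. Among all genes 18.1% were higher and 39.8% lower at 96 h. Egr1 is counted here although its mean level keeps it out of the 4789 genes. With CAF-1 OFF 0 h as the reference in place of HOXA9 OFF 0 h, a comparison chosen after seeing the data, 5 factors were higher at each time, Irf8 being lost at 48 h, and Gfi1 was again lower at 96 h. Spi1, Klf2 and Id2 then had log2 ratios of 2.59, 4.17 and 4.19 at 96 h, and Egr1 and Id1 of 1.97 and 1.02. Klf4 and Zeb2 stayed under the size counted, at 0.92 and 0.65. Of all genes, 13.3% were then higher and 22.0% lower at 48 h, and 18.4% higher and 40.7% lower at 96 h. The median ratio of the 10 factors was 0.21 and 0.37 in the CAF-1 OFF libraries at 48 and 96 h, beside 0 and −0.08 over all genes, and 1.41 and 0.98 in those of HOXA9 OFF, beside −0.23 and −0.56.

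On the scale with 10 CPM added, none of the 10 factors differed 2-fold between the untreated clones, where 0.752% of all genes were higher and 0.146% lower in HOXA9 OFF than in CAF-1 OFF. The largest distances there were those of Gfi1, at 0.88, and Irf8, at −0.68, which without the added CPM are 2.15-fold and 2.17-fold, and both bear on the results below. The scale of the HOXA9 OFF comparisons depends on the total used. Scaling by TMM or by median of ratios moved the median ratio of all genes up by 0.25 and 0.20 at 48 h and by 0.38 and 0.44 at 96 h, and a total from which mitochondrial and ribosomal protein genes were taken out moved it by −0.03 and −0.38. Under median-of-ratios scaling, 25.5% of all genes were higher and 29.5% lower at 96 h. Under TMM the percentages were 24.3% and 31.1%, and under the smaller total 14.2% and 48.6%.

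**Figure D1:**
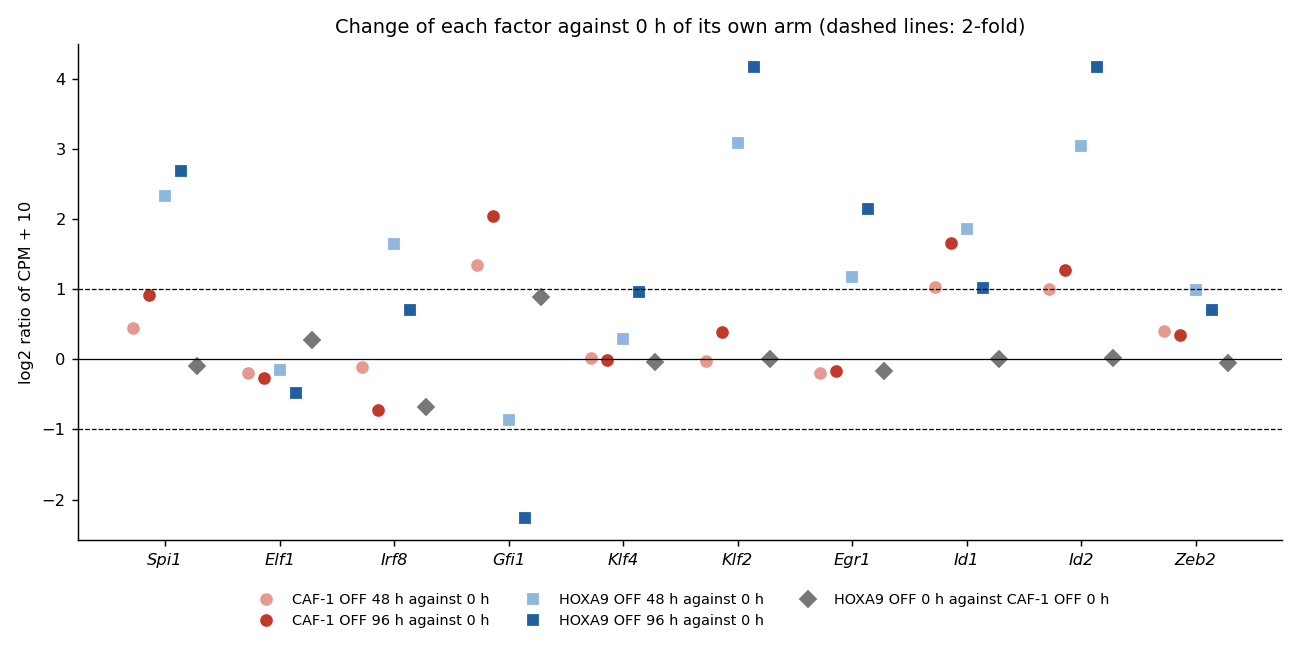
Log2 ratio of CPM + 10 (vertical axis) of each of the 10 factors (horizontal axis) at 48 and 96 h against 0 h of the same arm, and between the 0 h libraries of the arms. Circles are CAF-1 OFF, squares HOXA9 OFF, diamonds the untreated clones, and dashed lines mark 2-fold. Klf2 and Id2 reach 4.17 in HOXA9 OFF at 96 h, while Gfi1 lies at 2.05 in CAF-1 OFF and at −2.26 in HOXA9 OFF.

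Spi1 was higher at each later time in both arms, past 2-fold in HOXA9 OFF and just under it in CAF-1 OFF. It was at 165.9 CPM (exact 95% Poisson interval 153.8 to 178.6) at 0 h, 230.1 (217.7 to 243.0) at 48 h and 322.7 (307.8 to 338.3) at 96 h in CAF-1 OFF. The HOXA9 OFF levels were 154.2 CPM (142.5 to 166.5), 814.1 (790.0 to 838.7) and 1049 (1015 to 1083). Each later library lay above the 0 h library of its arm, and the later HOXA9 OFF libraries above all others. Of the neighbours in the order of the 6 levels, only the 0 h libraries lay within counting error of each other. The folds against 0 h were 1.39 (exact 95% binomial interval 1.26 to 1.52) and 1.95 (1.78 to 2.13) in CAF-1 OFF and 5.28 (4.86 to 5.74) and 6.80 (6.26 to 7.41) in HOXA9 OFF. The value at 96 h in CAF-1 OFF was just under the size counted, with a log2 ratio of 0.92, and passed it when each cell was given equal weight (1.03). All intervals cover counting error only.

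Shares of cells with a Spi1 UMI were compared after thinning each cell to 1300 UMIs, which kept 633, 907 and 902 cells in the CAF-1 OFF libraries and 472, 1376 and 1376 in those of HOXA9 OFF. Spi1 was then present in 17.7%, 26.2% and 32.6% of the CAF-1 OFF cells (0, 48 and 96 h) and in 16.9%, 66.5% and 74.4% of HOXA9 OFF cells. At full depth the shares were 62.0%, 68.8% and 79.7% in the CAF-1 OFF libraries and 69.3%, 91.6% and 86.8% in those of HOXA9 OFF. More cells had a UMI of it at the later times in both arms, and those cells had more of them, with 1.74, 2.02 and 2.40 UMIs per positive cell at full depth in the CAF-1 OFF libraries and 1.97, 3.36 and 2.82 in those of HOXA9 OFF, where depth per cell fell. No group of cells here lacks Spi1, so the share that free RNA alone would give was not measured.

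Elf1, the other ETS factor, moved less than 2-fold in both arms. It was at 55.5, 47.2 and 44.3 CPM in the CAF-1 OFF libraries at 0, 48 and 96 h and at 69.0, 61.0 and 46.5 CPM in those of HOXA9 OFF. Each neighbour in the order of these levels lay within counting error of the next, but the folds at 96 h against 0 h were 0.798 (0.664 to 0.960) in CAF-1 OFF and 0.675 (0.554 to 0.820) in HOXA9 OFF. The log2 ratios were −0.20 and −0.27 in the CAF-1 OFF libraries and −0.15 and −0.48 in those of HOXA9 OFF, and the value at 48 h in HOXA9 OFF changed sign under TMM scaling (0.11) and with CAF-1 OFF 0 h as reference (0.12). In thinned cells it was found in 5.21% to 6.28% of CAF-1 OFF cells and 6.40% to 8.47% of HOXA9 OFF cells.

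**Figure D2:**
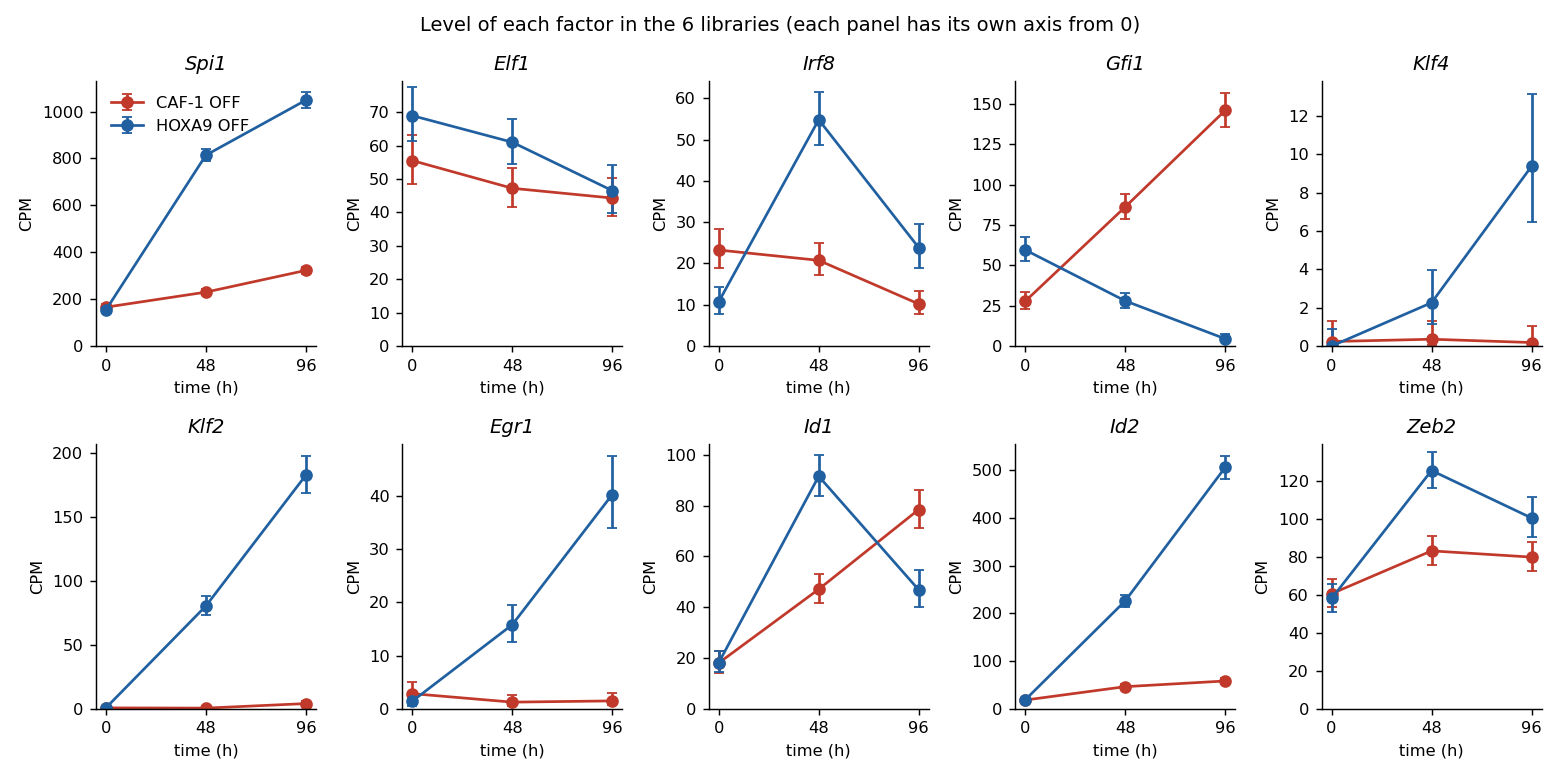
CPM (vertical axis, from 0, with its own range in each panel) of the 10 factors at 0, 48 and 96 h (horizontal axis) in CAF-1 OFF (red) and HOXA9 OFF (blue). Points are single libraries and bars exact 95% Poisson intervals. Gfi1 runs from 27.8 up to 146.1 CPM in the CAF-1 OFF libraries, and from 59.7 CPM down to 4.54 CPM in those of HOXA9 OFF, while Irf8 peaks at 54.8 CPM in HOXA9 OFF at 48 h.

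Irf8 peaked at 48 h of HOXA9 OFF and was lowest at 96 h of CAF-1 OFF. It was at 23.3 CPM (18.9 to 28.3), 20.8 (17.1 to 24.9) and 10.2 (7.68 to 13.3) at 0, 48 and 96 h in CAF-1 OFF. The HOXA9 OFF levels were 10.7 CPM (7.83 to 14.4), 54.8 (48.7 to 61.5) and 23.8 (19.0 to 29.5). The HOXA9 OFF library at 48 h stood alone at the top of the order, those of HOXA9 OFF at 96 h and CAF-1 OFF at 0 and 48 h followed within counting error of their neighbours, and HOXA9 OFF at 0 h and CAF-1 OFF at 96 h shared the lowest place. Against 0 h of its arm, Irf8 was 2.28-fold lower (1.62 to 3.23) at 96 h in CAF-1 OFF. The HOXA9 OFF levels were 5.10-fold higher (3.72 to 7.15) at 48 h and 2.22-fold higher (1.53 to 3.26) at 96 h. From 48 to 96 h it was 2.30-fold lower (1.80 to 2.97) in HOXA9 OFF. With 10 CPM added, the log2 ratios at 96 h were −0.72 and 0.71, so that neither was counted above.

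These Irf8 folds depend on which untreated clone is the reference. Irf8 was 2.17-fold lower (1.51 to 3.15) in HOXA9 OFF than in CAF-1 OFF at 0 h. With CAF-1 OFF 0 h as reference for the HOXA9 OFF libraries its log2 ratio was 0.96 at 48 h and 0.03 at 96 h in place of 1.64 and 0.71, so that the value at 48 h was no longer past 2-fold. In thinned cells an Irf8 UMI was present in 3.63%, 1.98% and 1.22% of the CAF-1 OFF cells and in 0.847%, 5.45% and 1.82% of HOXA9 OFF cells. At full depth the shares were 12.98%, 10.6% and 5.16% in the CAF-1 OFF libraries and 8.88%, 11.8% and 4.17% in those of HOXA9 OFF. The Prg2-rich cells described below, at a median depth of 3735 UMIs, gave 0 of 208 thinned cells with an Irf8 UMI, which allows a share of up to 1.44% by a floor of 3 cells. The thinned shares of 1.22% and 0.847% lie under this limit.

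Gfi1 moved in opposite directions in the arms. It was at 27.8 CPM (23.0 to 33.3), 86.2 (78.7 to 94.3) and 146.1 (136.1 to 156.6) at 0, 48 and 96 h in CAF-1 OFF. The HOXA9 OFF levels were 59.7 CPM (52.5 to 67.5), 28.1 (23.7 to 32.9) and 4.54 (2.59 to 7.37). The later CAF-1 OFF libraries held the highest levels and HOXA9 OFF at 96 h, with 16 UMIs, the lowest, and in the order of levels only HOXA9 OFF at 48 h and CAF-1 OFF at 0 h lay within counting error of each other. Against 0 h it was 3.11-fold (2.53 to 3.83) and 5.26-fold (4.33 to 6.45) higher in CAF-1 OFF. With estradiol withdrawn it was 2.13-fold (1.73 to 2.62) and 13.1-fold (7.93 to 23.3) lower. At 96 h the HOXA9 OFF library was 32.2-fold (19.7 to 56.6) below that of CAF-1 OFF. The untreated clones differed here too, by 2.15-fold (1.72 to 2.70), with more Gfi1 in HOXA9 OFF. With CAF-1 OFF 0 h as reference the log2 ratio in HOXA9 OFF was 0.01 at 48 h and −1.38 at 96 h in place of −0.87 and −2.26.

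The share of thinned cells with a Gfi1 UMI followed the CPM, with 4.42%, 10.5% and 16.2% in the CAF-1 OFF libraries and 6.36%, 2.40% and 0.218% in those of HOXA9 OFF. At full depth it was 15.9%, 38.0% and 51.8% in the CAF-1 OFF libraries and 41.0%, 8.83% and 0.927% in those of HOXA9 OFF. Markers of early granulocytes moved beside Gfi1 in CAF-1 OFF, where 5 of 5 (Elane, Ms4a3, Fcnb, Cebpe and Gstm1) were at least 2-fold higher at 96 h and their sum went from 414 to 4379 CPM. Of all genes 5.22% were higher there. The same list was also higher at 48 h of HOXA9 OFF, where 4 of 5 passed, beside 13% of all genes. Its sum went from 393 to 2808 CPM while Gfi1 was lower. Of the progenitor markers 8 of 8 were lower at 96 h of HOXA9 OFF, where Gfi1 and 39.8% of all genes were lower too. Their sum went from 6685 to 115 CPM. None of these 8 passed 2-fold at 96 h of CAF-1 OFF, where Gfi1 was higher. The part of these markers in the result was not tested.

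A promoter window each of Gfi1 and Irf8 is shown because these factors moved apart and each has a window with the E-box CAGGTG that ZEB repressors bind. This motif is found at a like share over all genes. RefSeq promoter windows (250 bases before to 50 after a start site, GRCm38.p6) were found for 7 of the 10 factors, 13 windows in all. CAGGTG was searched on both strands and was present in 3 of the 13 (23.1%), 1 each of Gfi1, Irf8 and Elf1, where 20.2% of 32851 windows of all genes hold it. The capitals mark it, 42 bases upstream of the start site of the window shown in Gfi1 and 205 in Irf8. Each of these genes has another window, at chr5:107724294-107724593 for Gfi1 and chr8:120736108-120736407 for Irf8. Those windows hold none of the motifs searched and are not shown. The other motifs searched were CCGGAAGT of the ELF1 type, GAGGAAGT of the PU.1 type, GAAA followed by any 2 bases and GAAA again (the IRF type) and GCGTGGGCG of the EGR type, held by 3.89%, 3.20%, 3.44% and 0.612% of all windows and by 0 of the 13, and they do not overlap the E-box.
Gfi1 chr5:107725756-107726055, minus strand: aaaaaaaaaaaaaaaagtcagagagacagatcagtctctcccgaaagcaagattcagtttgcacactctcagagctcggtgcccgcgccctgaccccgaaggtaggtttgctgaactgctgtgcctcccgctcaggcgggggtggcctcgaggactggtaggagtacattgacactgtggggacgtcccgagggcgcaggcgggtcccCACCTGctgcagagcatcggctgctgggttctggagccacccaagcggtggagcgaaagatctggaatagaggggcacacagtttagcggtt
Irf8 chr8:120738389-120738688, plus strand: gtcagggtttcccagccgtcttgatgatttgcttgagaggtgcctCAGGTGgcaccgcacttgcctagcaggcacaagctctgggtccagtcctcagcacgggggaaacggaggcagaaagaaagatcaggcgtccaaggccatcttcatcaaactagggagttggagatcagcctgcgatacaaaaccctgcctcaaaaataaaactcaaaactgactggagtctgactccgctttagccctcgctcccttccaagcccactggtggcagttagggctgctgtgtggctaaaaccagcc

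Klf2 was all but absent before treatment and was far higher at both later times in HOXA9 OFF. It had 3, 3 and 22 UMIs at 0, 48 and 96 h in CAF-1 OFF (0.712, 0.537 and 4.08 CPM) and 3, 427 and 644 UMIs in HOXA9 OFF (0.716, 80.4 and 182.7 CPM). The later HOXA9 OFF libraries stood far above the others, CAF-1 OFF at 96 h came next, and the remaining 3 were within counting error. The folds against 0 h, each resting on 3 UMIs at 0 h, were 112 (38.2 to 547) and 255 (86.9 to 1241) in HOXA9 OFF and 5.73 (1.72 to 29.9) at 96 h in CAF-1 OFF. Thinned cells with a Klf2 UMI made up 9.67% and 19.5% of HOXA9 OFF cells at 48 and 96 h, against 0.212% at 0 h and 0.333% in CAF-1 OFF at 96 h. At full depth the HOXA9 OFF shares were 0.634%, 22.6% and 29.8%.

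Klf4 was seen in few cells of any library. It had 1, 2 and 1 UMIs in the CAF-1 OFF libraries at 0, 48 and 96 h and 0, 12 and 33 in those of HOXA9 OFF, the last of which are 2.26 CPM (1.17 to 3.95) and 9.36 CPM (6.45 to 13.2). Only the later HOXA9 OFF libraries were above 3 UMIs. Set against a floor of 3 counts in the HOXA9 OFF 0 h library (0.716 CPM), Klf4 was at least 3.16-fold higher at 48 h and at least 13.1-fold higher at 96 h. With the error of the 12 and 33 UMIs counted too, the exact intervals of the folds begin at 2.19 and 10.1. At full depth it was found in 0.783% and 1.92% of these cells and in 0 of 473 at 0 h, which allows a share of up to 0.634%.

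Egr1 had the same course as Klf2 in HOXA9 OFF and no higher level after 0 h in CAF-1 OFF. It had 12, 7 and 8 UMIs in CAF-1 OFF (2.85, 1.25 and 1.48 CPM) and 6, 84 and 142 in HOXA9 OFF (1.43, 15.8 and 40.3 CPM). The later HOXA9 OFF libraries were highest and the other 4 were within counting error of their neighbours. The folds against 0 h were 11.0 (4.87 to 31.0) and 28.1 (12.6 to 78.0) in HOXA9 OFF. In thinned cells the share with an Egr1 UMI was 0.424%, 2.18% and 3.92% in HOXA9 OFF and 0.158% to 0.331% in CAF-1 OFF, and at full depth it was 1.27%, 5.77% and 7.48% and 0.539% to 1.55%.

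Id1 was the factor that passed 2-fold at each time in both arms. At 0, 48 and 96 h it stood at 18.0, 47.1 and 78.4 CPM in the CAF-1 OFF libraries and at 18.1, 91.5 and 46.8 CPM in those of HOXA9 OFF. The 0 h libraries were lowest and equal within counting error. The level kept climbing in CAF-1 OFF, with folds of 2.61 (2.01 to 3.41) and 4.35 (3.40 to 5.63), and peaked at 48 h in HOXA9 OFF, with folds of 5.05 (3.96 to 6.51) and 2.58 (1.96 to 3.43). The log2 ratios of 1.03 in CAF-1 OFF at 48 h and 1.01 in HOXA9 OFF at 96 h were at the edge of the size counted, and each fell under it in some settings. Under TMM scaling the first was 0.95, and under the total from which mitochondrial and ribosomal protein genes were taken out the second was 0.74.

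Id2 was still climbing at 96 h in both arms. It was at 18.3, 46.3 and 58.2 CPM in the CAF-1 OFF libraries and at 18.6, 225.8 and 505.4 CPM in those of HOXA9 OFF. The 6 levels kept the order of Spi1 except for the 0 h libraries, which were within counting error of each other. Id2 was 2.54-fold (1.96 to 3.32) and 3.19-fold (2.48 to 4.14) higher in CAF-1 OFF and 12.1-fold (9.64 to 15.5) and 27.1-fold (21.6 to 34.5) higher in HOXA9 OFF. Thinned cells with an Id2 UMI made up 2.37%, 5.07% and 6.65% of CAF-1 OFF and 1.48%, 23.8% and 39.3% of HOXA9 OFF cells, and at full depth 9.43%, 20.2% and 22.2% and 7.40%, 44.3% and 50.8%. At 0 h in HOXA9 OFF, 10 cells rich in Prg2 or Cpa3 transcripts, granule genes of eosinophils and mast cells, held 38 of the 78 Id2 UMIs, and 1 cell of the library held 24. Without these 10 cells, a setting chosen after seeing the data, Id2 was at 9.70 CPM at 0 h and its log2 ratios were 3.58 and 4.71 in place of 3.04 and 4.17.

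Klf2 and Id2, which reached the same log2 ratio of 4.17 in HOXA9 OFF at 96 h, are shown with their promoter windows. Without the added 10 CPM their folds were unlike, at 255 and 27.1. The windows have 69.3% G and C in Klf2 and 63.3% in Id2, within the range of the other factors' windows, from 44.7% (Elf1) to 74.3% (Klf4). Like most windows of the factors they hold none of the motifs searched, which says only that these letters are not in the windows.
Klf2 chr8:72318812-72319111, plus strand: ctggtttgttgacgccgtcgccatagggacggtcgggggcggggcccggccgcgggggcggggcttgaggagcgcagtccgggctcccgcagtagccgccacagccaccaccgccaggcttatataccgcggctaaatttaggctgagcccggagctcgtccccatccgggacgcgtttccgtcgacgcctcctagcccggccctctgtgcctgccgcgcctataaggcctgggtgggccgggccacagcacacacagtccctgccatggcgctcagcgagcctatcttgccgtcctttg
Id2 chr12:25096043-25096342, minus strand: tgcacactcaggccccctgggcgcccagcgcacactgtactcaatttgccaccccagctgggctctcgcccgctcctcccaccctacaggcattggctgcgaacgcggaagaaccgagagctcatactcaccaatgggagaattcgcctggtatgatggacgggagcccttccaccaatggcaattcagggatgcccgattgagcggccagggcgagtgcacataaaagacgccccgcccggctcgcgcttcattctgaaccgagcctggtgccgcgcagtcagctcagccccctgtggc

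Zeb2 changed least among the factors that were higher in both arms. It was at 60.7, 83.4 and 80.1 CPM in the CAF-1 OFF libraries and at 58.2, 125.8 and 100.7 CPM in those of HOXA9 OFF. All 4 later libraries lay above both 0 h libraries, with folds of 1.37 (1.18 to 1.60) and 1.32 (1.13 to 1.54) in CAF-1 OFF and 2.16 (1.86 to 2.51) at 48 h in HOXA9 OFF. With a log2 ratio of 0.99 there it was just under the size counted, and passed it under TMM scaling (1.27). Its antisense transcript Zeb2os was at 12.6, 9.84 and 10.6 CPM in the CAF-1 OFF libraries and at 10.0, 32.0 and 25.5 CPM in those of HOXA9 OFF. At 48 h of CAF-1 OFF the fold of Zeb2os was 0.782 (0.527 to 1.16), where that of Zeb2 was 1.37. Strand use in counting is not stated in the sources used here, and how well reads of the pair were separated was not checked.

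In which cells each factor lay was read from the markers S100a8 with S100a9 (alarmins of neutrophils), Prg2 (major basic protein of eosinophils), Elane and Cpa3. A cell was placed by the only one of these 4 that held at least 1% of its UMIs, which gives a range of cells and not a cell type, and groups of under 50 cells were not described. In CAF-1 OFF, 96.8% to 99.5% of cells held none of them, so this reading concerns HOXA9 OFF. A limit of 0.5% gave 107 Cpa3-rich cells (11.7%) at 96 h of CAF-1 OFF. Spi1 was at 283 CPM in these and 315 CPM in unmarked cells, and Gfi1 at 113 and 145 CPM. Id1 was at 55.0 and 83.7 CPM, and Id2 at 79.2 and 59.8 CPM. At 48 h that library had 214 S100a8-rich cells (15.2%, median 2731 UMIs), 221 Prg2-rich cells (15.7%, 3661 UMIs) and 960 without a marker (68.4%, 3720.5 UMIs). At 96 h it had 1300 S100a8-rich cells (86.1%, 1951 UMIs) and 163 without a marker (10.8%, 3105 UMIs).

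Spi1 did not separate the 3 groups at 48 h. It was at 853 CPM in S100a8-rich, 808 in Prg2-rich and 811 in unmarked cells, and the fold of the first over the second was 1.06 (0.939 to 1.19). Irf8 did. It was at 18.0 CPM in S100a8-rich cells, at 1.26 CPM (1 UMI) in Prg2-rich cells and at 72.2 CPM in unmarked cells, which held 95.9% of the Irf8 UMIs and 72.8% of all UMIs of the library. The fold of unmarked over Prg2-rich cells was 57.5 (10.2 to 2279), its width set by the single UMI. Gfi1, at 18.0, 26.4 and 30.0 CPM, lay within counting error in the 3 groups.

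At 48 h Id2 and Klf2 were lowest in the Prg2-rich cells. Id2 was at 428, 79.1 and 220 CPM in S100a8-rich, Prg2-rich and unmarked cells, and Klf2 at 176, 30.1 and 76.3 CPM. The S100a8-rich cells were highest for both, 5.41-fold (4.09 to 7.24) over Prg2-rich cells for Id2 and 5.85-fold (3.73 to 9.53) for Klf2. The order of Id2 did not hold at 96 h, where 64 cells with at least 0.5% of their UMIs from Prg2 had 775 CPM (656 to 910), S100a8-rich cells by the same limit 471 CPM and unmarked cells 555 CPM, while Klf2 was again lowest in the Prg2-rich cells, at 88.4 CPM. Zeb2 at 48 h had the opposite order, at 94.7 CPM in S100a8-rich and 137 CPM in Prg2-rich cells, a fold of 0.692 (0.494 to 0.960). Id1 was at 68.6, 84.1 and 96.5 CPM at 48 h, within counting error between the marked groups.

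At 96 h the 163 cells without a marker held more Irf8, Egr1, Klf4, Zeb2, Gfi1, Elf1 and Id2 than the 1300 S100a8-rich cells and less Spi1, Klf2 and Id1. Irf8 was at 100.4 CPM (76.4 to 129.5) in the first and 8.96 CPM (5.80 to 13.2) in the second, 11.2-fold apart (6.91 to 18.7), so that 10.8% of the cells and 16.7% of the UMIs of the library held 70.2% of its Irf8 UMIs. Egr1 was at 121 against 19.3 CPM, 6.24-fold higher (4.32 to 9.07), Klf4 at 25.5 against 6.45 CPM, 3.96-fold (1.86 to 8.32), and Zeb2 at 203 against 81.0 CPM, 2.50-fold (1.99 to 3.14). Gfi1 rested on 8 and 6 UMIs there, 6.33-fold apart (1.93 to 22.1). Elf1 and Id2 were higher in the unmarked cells by 1.84-fold (1.25 to 2.66) and 1.42-fold (1.27 to 1.59). Spi1, Klf2 and Id1 were lower in them, with folds of 0.733 (0.664 to 0.808), 0.629 (0.486 to 0.802) and 0.432 (0.224 to 0.762). In thinned cells an Irf8 UMI was found in 9.93% of unmarked and 0.846% of S100a8-rich cells, and an Egr1 UMI in 15.9% and 2.12%, at median depths of 3309 and 2030 UMIs before thinning. The Prg2-rich cells were under 50 at 96 h, but the limit of 0.5% gave 64 of them. Egr1 was then highest in these, at 151 CPM (101 to 217) against 108 CPM in unmarked and 20.7 CPM in S100a8-rich cells, with the first 2 within counting error. Irf8 had 0 UMIs in them against 122 CPM in the unmarked cells.

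**Figure D3:**
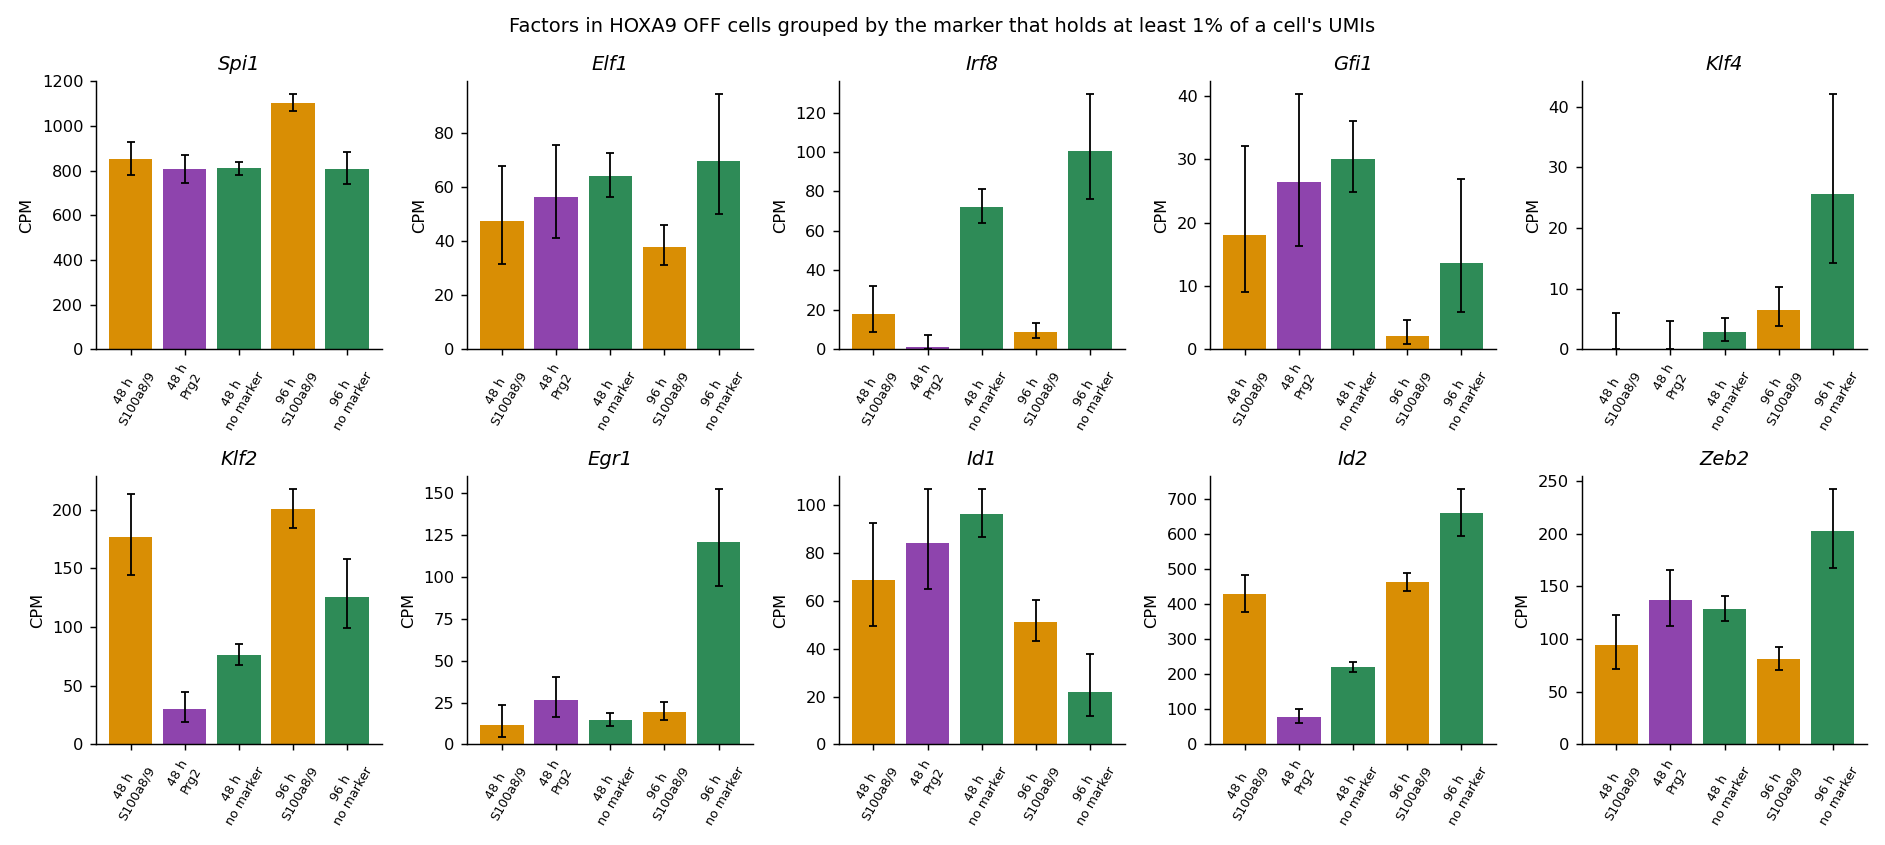
CPM (vertical axis, from 0, with its own range in each panel) of the 10 factors in HOXA9 OFF cells grouped by marker at 48 and 96 h (horizontal axis). Bars are CPM of UMIs summed over the cells of a group, with exact 95% Poisson intervals. Irf8 is at 72.2 and 100.4 CPM in the cells without a marker and at or under 18.0 CPM in the marked groups, while Spi1 lies between 808 and 1105 CPM in all 5.

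The marker lists of other cell types moved with this split. The 11 monocyte and macrophage markers summed to 5337 CPM in the unmarked cells at 96 h and to 1145 CPM in the S100a8-rich cells. Ms4a6c was at 1159 against 41.9 CPM, Ccr2, the receptor that brings monocytes out of the marrow, at 378 against 7.17 CPM, Fcgr1 at 313 against 25.4 CPM and Csf1r, the receptor for macrophage colony-stimulating factor, at 294 against 73.1 CPM. Ccr2 was already at 349 CPM in the unmarked cells of HOXA9 OFF at 0 h, and at 502 CPM in those of CAF-1 OFF. Its 378 CPM is thus near the level of untreated progenitors. Ms4a6c, Fcgr1 and Csf1r were at 5.58, 3.64 and 0 CPM in the unmarked cells of HOXA9 OFF at 0 h. The dendritic list summed to 706 against 24.4 CPM, nearly all of it Cd74 (694 against 20.1 CPM), and H2-Aa was at 0 in both. The late granulocyte list summed to 5662 against 180194 CPM, the eosinophil list to 1644 against 200 CPM and the progenitor list to 412 against 46.6 CPM. The late granulocyte list holds S100a8 and S100a9, at 81824 and 60461 CPM in the S100a8-rich cells. The eosinophil list holds Prg2, at 1331 CPM in the unmarked cells. These genes defined the groups, so the contrasts of both lists were in part set by the grouping. Of the list of genes not expressed in blood there were no UMIs in either. The part of these cells in the factor levels was not tested.

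Cells with an Irf8 UMI carried more monocyte transcripts than cells without at each of the HOXA9 OFF times after withdrawal. At 96 h, 63 cells with an Irf8 UMI (median 4188 UMIs) had 6658 CPM of the monocyte and macrophage list, against 1406 CPM in 1447 cells without (2010 UMIs), a fold of 4.73 (4.484 to 4.997). Ccr2 was 13.04-fold (10.1 to 16.9), Ms4a6c 12.3-fold (10.7 to 14.2) and Fcgr1 7.43-fold (5.72 to 9.62) higher in them, and the late granulocyte list was at 24254 against 154291 CPM. In the library as a whole Ccr2 was past 2-fold lower than at 0 h. At 48 h, in 166 cells with (4006 UMIs) and 1238 without (3507.5 UMIs), the list was at 1378 against 599 CPM, a fold of 2.30 (2.14 to 2.47), with Ms4a6c 5.15-fold (4.40 to 6.01) higher. Within the unmarked cells, a comparison chosen after seeing the data, the fold of the list was 1.90 (1.77 to 2.04) at 96 h and 2.09 (1.94 to 2.26) at 48 h. The first rests on 42 cells with an Irf8 UMI. In CAF-1 OFF the same contrast was small, at 752 against 662 CPM at 0 h, a fold of 1.14 (1.02 to 1.26), and 740 against 619 CPM at 48 h, a fold of 1.20 (1.08 to 1.32). At 96 h of CAF-1 OFF the fold within the unmarked cells, 46 of them with an Irf8 UMI, was 0.916 (0.770 to 1.08). Cells of 1 library are not replicates, and cells with a UMI of a rare gene are deeper on average, so these are descriptions.

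**Figure D4:**
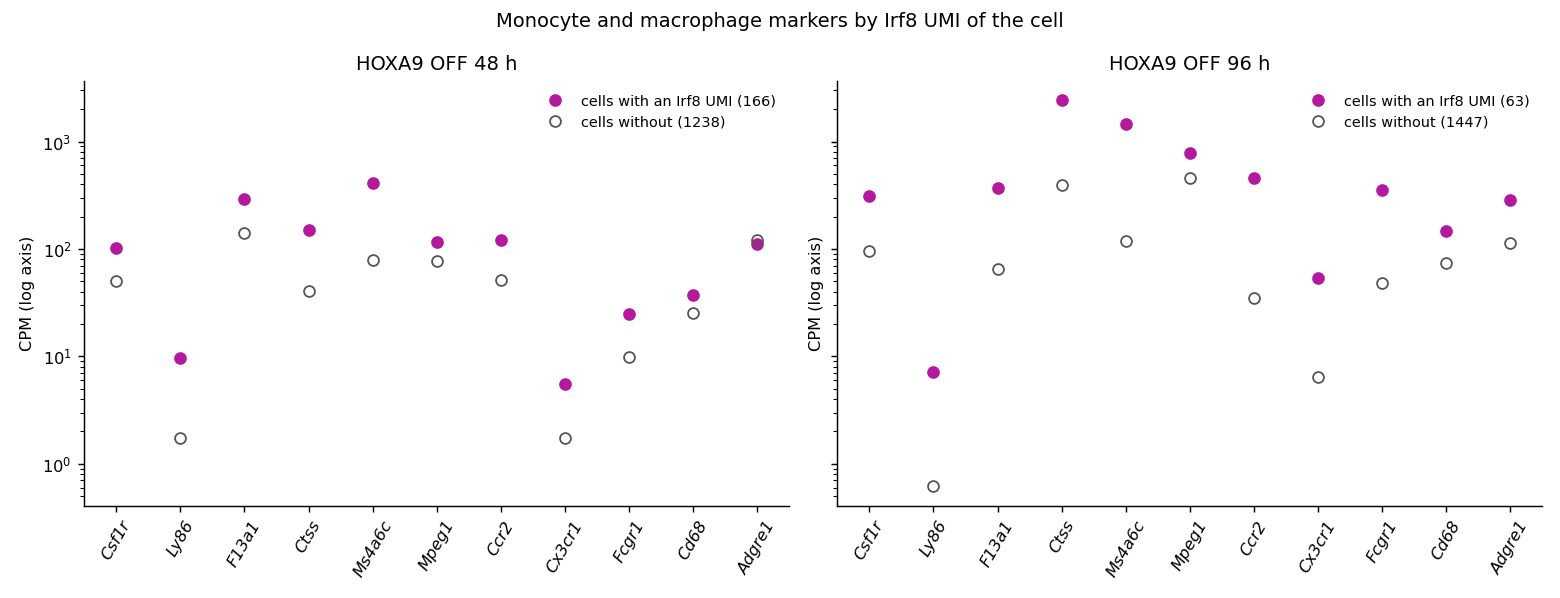
CPM on a log axis (vertical) of 11 monocyte and macrophage markers (horizontal axis) in HOXA9 OFF cells with an Irf8 UMI (filled points) and without (open points), at 48 h (left) and 96 h (right). Points are UMIs summed over the cells of each kind. At 96 h Ms4a6c is at 1464 against 119 CPM and Ccr2 at 458 against 35.2 CPM, and the filled point is the higher for each marker except Adgre1 at 48 h.

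Eosinophil transcripts went the other way in cells with an Irf8 UMI. The eosinophil list was at 1627 against 22079 CPM at 48 h of HOXA9 OFF, a fold of 0.0737 (0.0695 to 0.0780), and Prg2 itself at 1037 against 19102 CPM. It was also lower in CAF-1 OFF at 48 h, at 96.4 against 507 CPM, a fold of 0.190 (0.145 to 0.245), and at 0 h, at 7.39 against 248 CPM. Few cells carried much of these sums, 11 marked cells holding 1407 of 2573 UMIs at 48 h and 3 holding 566 of 916 at 0 h. Within unmarked cells alone, a comparison chosen after seeing the data, the folds were 0.517 (0.476 to 0.560) at 48 h of HOXA9 OFF, 0.435 (0.331 to 0.563) at 48 h of CAF-1 OFF and 0.0783 (0.0212 to 0.202) at 0 h, the last resting on 4 UMIs. Spi1 showed the reverse in CAF-1 OFF at 96 h, where 726 cells with a UMI had 1466 CPM of the eosinophil list and 185 cells without had 293 CPM, a fold of 4.999 (4.45 to 5.63). The 29 marked cells of that library held 4715 of its 6698 eosinophil list UMIs, and within the unmarked cells the fold was 2.88 (2.44 to 3.42). In unmarked cells of the other libraries the fold for Spi1 was 3.61 at 48 h of CAF-1 OFF and 1.36 at 48 h of HOXA9 OFF. It was 1.05 and 1.03 at 0 h of CAF-1 OFF and HOXA9 OFF. At 96 h of HOXA9 OFF, where 14 unmarked cells lacked a Spi1 UMI, it was 0.283 (0.237 to 0.340).

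Cells with a Gfi1 UMI in HOXA9 OFF at 48 h (124 of 1404) had less of the monocyte list, 332 against 755 CPM (fold 0.439, 0.380 to 0.505), and more of the early granulocyte list, 4308 against 2609 CPM (1.65, 1.58 to 1.72), and of the progenitor list, 6330 against 3677 CPM (1.72, 1.66 to 1.78). Within the unmarked cells, a comparison chosen after seeing the data, the folds of these lists were 0.356, 1.84 and 1.69. The late granulocyte list went the other way from the early one there, at 3528 against 4670 CPM (0.756, 0.719 to 0.793). In CAF-1 OFF at 96 h, 472 cells with a Gfi1 UMI had 4861 CPM of the early granulocyte list and 439 cells without had 3823 CPM, a fold of 1.27 (1.24 to 1.31), while the monocyte list was level at 551 and 518 CPM (1.06, 0.989 to 1.15). Within the unmarked cells of that library the late granulocyte list was higher with a Gfi1 UMI (1.26, 1.20 to 1.33).

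Whether Irf8 and Gfi1 were found in the same cells could be read in part. At 48 h of HOXA9 OFF, a Gfi1 UMI was found in 3.61% (exact 95% binomial interval 1.34 to 7.70) of 166 cells with an Irf8 UMI and in 9.53% (7.95 to 11.3) of 1238 cells without. In thinned cells it was 0 of 75, with an upper limit of 4.80%, against 2.54% of 1301. The cells with an Irf8 UMI were the deeper ones (median 4006 against 3507.5 UMIs) and still had the lower share. At full depth in CAF-1 OFF the order was not the same at each time, with 10.7% against 16.7% at 0 h, 46.9% against 36.9% at 48 h and 42.6% against 52.3% at 96 h, and intervals that overlap. In HOXA9 OFF at 0 h the shares at full depth were 40.5% and 41.1%. At 96 h of HOXA9 OFF the order was the other way, with 1.59% of 63 cells against 0.898% of 1447. The first of these is 1 cell, and the intervals overlap. In thinned CAF-1 OFF cells they were 4.35% and 4.43% at 0 h, 5.56% and 10.6% at 48 h and 18.2% and 16.2% at 96 h. The first of each pair rests on 1 of 23, 1 of 18 and 2 of 11 cells. Spi1 and Irf8 were read alike. At 48 h of HOXA9 OFF a thinned cell with a Spi1 UMI had an Irf8 UMI in 5.14% of cases and a cell without in 6.07%, and at 96 h in 1.86% and 1.70%. At full depth, where cells with a Spi1 UMI were deeper, the shares were 12.1% and 9.32% at 48 h and 4.73% and 0.503% at 96 h.

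The genes of the same pathways were read from lists of receptors, partners and relatives. Of 12 genes for myeloid receptors and their adaptors that PU.1 is known to control, 3 and 7 were at least 2-fold higher at 48 and 96 h in CAF-1 OFF and 11 at both times in HOXA9 OFF. None was lower. The shares over all genes, against which this count and those of the next lists are read, were 2.76% and 5.22% higher and 0.0418% and 0.856% lower in CAF-1 OFF, and 13% and 18.1% higher and 19.6% and 39.8% lower in HOXA9 OFF. Their median log2 ratio was 0.51 and 1.05 in the CAF-1 OFF libraries and 2.24 and 3.04 in those of HOXA9 OFF, beside the medians over all genes above, and their sum went from 535 to 831 and 1271 CPM and from 608 to 4841 and 8380 CPM. The largest ratios at 96 h of CAF-1 OFF were those of Fcgr2b, an inhibitory Fc receptor (27.0 to 212 CPM), Csf2rb, the shared chain of cytokine receptors (10.7 to 112 CPM), and Itgb2, an integrin chain of leukocytes (7.36 to 59.7 CPM). In HOXA9 OFF they were those of Itgam, its partner chain (1.19 to 231 CPM), Itgb2 (9.07 to 359 CPM) and Tyrobp, a signalling adaptor (355 to 5882 CPM). Csf1r, named after its value was seen, was higher in HOXA9 OFF only, going from 0 UMIs to 57.6 and 114 CPM, whereas its highest level in CAF-1 OFF was 2.22 CPM.

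Few relatives of the factors passed 2-fold in CAF-1 OFF, where few of all genes did either. Only 3 of the IRF genes, 3 of the ETS genes and 2 of the KLF genes had a mean of at least 20 CPM. The added 10 CPM understates the change of the rest. Of 8 IRF genes other than Irf8, 1 was higher at 96 h there, Irf7, named after its value was seen, and 2 and 5 were higher at 48 and 96 h in HOXA9 OFF. The largest were Irf7, a driver of interferon production (1.43 to 314 CPM at 96 h), Irf9, which carries the interferon signal to DNA (3.102 to 57.9 CPM), and Irf5 (3.34 to 50.2 CPM). Of 15 other ETS genes, 13 of them with a UMI, none passed 2-fold in CAF-1 OFF, Fli1 was higher at both times in HOXA9 OFF (24.8 to 68.2 and 73.2 CPM), and Erg, named after its value was seen, was lower at 96 h (20.5 to 4.54 CPM). Of 14 other KLF genes, 10 with a UMI, none passed in CAF-1 OFF, while 3 and 4 were higher at 48 and 96 h in HOXA9 OFF, Klf6 (7.88 to 199 CPM) and Klf13 (17.2 to 183 CPM) foremost, and Klf9 was lower at 96 h. These 3 and 4 of 10 KLF genes stand beside 13% and 18.1% of all genes that were higher in HOXA9 OFF. The median log2 ratio of the KLF list there was 0.11 and 0.60, beside −0.23 and −0.56 over all genes.

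Egr1 was accompanied by other immediate early genes in HOXA9 OFF. Of 19 of them, 9 were higher at 48 h and 14 at 96 h, none was lower, and their sum went from 184 to 752 and 2542 CPM. Fos went from 7.16 to 145 and 415 CPM, Junb from 17.4 to 95.5 and 446 CPM and Ier5 from 7.88 to 35.4 and 274 CPM. With Chaf1b targeted none passed at 48 h and Jund alone did at 96 h, and Jund was also the gene of this list that differed 2-fold between the untreated clones. At 96 h of HOXA9 OFF, Fos was at 1055 CPM in unmarked and 253 CPM in S100a8-rich cells, and Junb at 1053 and 303 CPM, so both were higher where Egr1 was. Of 5 heat shock genes, 4 with a UMI, none was higher. Hsph1 was lower at both times in HOXA9 OFF (49.2 to 5.84 and 1.70 CPM) and at 96 h of CAF-1 OFF, and Hspa8 at 96 h in HOXA9 OFF (2518 to 539 CPM).

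Among the partners of GFI1 and of the ID and ZEB factors, 1 gene passed 2-fold in CAF-1 OFF. Of 6 GFI1 partners and relatives, Gfi1b, named after its value was seen, was higher at both times in CAF-1 OFF (5.93 to 22.9 and 32.4 CPM) and did not pass in HOXA9 OFF. Hdac2, a deacetylase of the corepressor that GFI1 recruits, was lower in HOXA9 OFF (128 to 32.2 and 20.1 CPM). Of 8 partners of ID and ZEB factors, 7 with a UMI, none passed in CAF-1 OFF. In HOXA9 OFF the E-protein genes were lower, Tcf3 (50.4 to 19.4 and 13.3 CPM) and Tcf4 at both times and Tcf12 at 96 h, which are 2 and 3 of the 8, near the shares of all genes that were lower. With CAF-1 OFF 0 h as the reference, 10 and 11 of the receptor genes, 8 and 12 of the immediate early genes, 2 and 4 of the IRF genes and 4 and 4 of the KLF genes were higher in HOXA9 OFF at 48 and 96 h, and the same 3 E-protein genes were lower at 96 h.

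**Figure D5:**
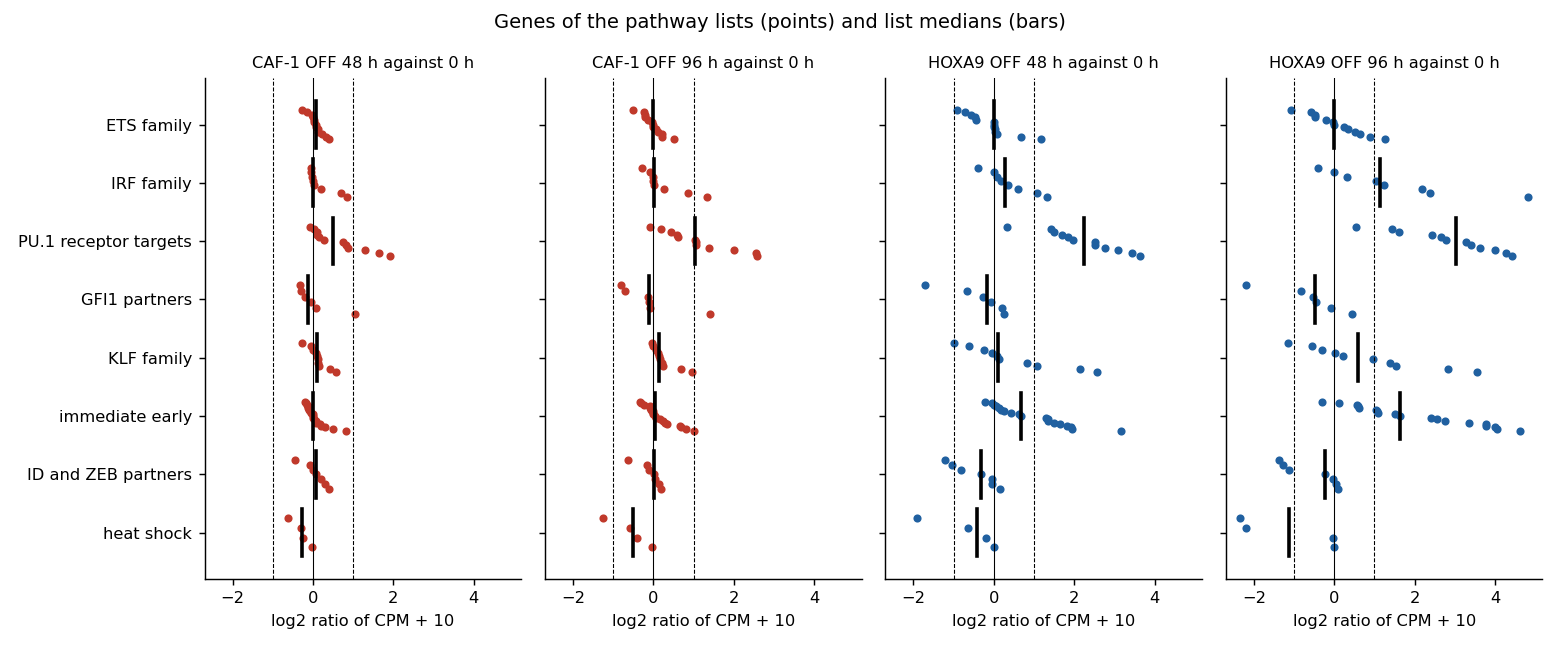
Log2 ratio of CPM + 10 (horizontal axis) of the genes of 8 lists (rows) at 48 and 96 h against 0 h in CAF-1 OFF (red) and HOXA9 OFF (blue). Points are genes with a UMI in any library, black bars list medians and dashed lines 2-fold. The median of the PU.1 receptor targets is 3.04 and that of the immediate early genes 1.62 in HOXA9 OFF at 96 h, against 1.05 and 0.05 in CAF-1 OFF.

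The genes whose course over the 6 libraries was most like that of a factor were taken by the smallest root mean square difference of centred log2(CPM + 10) values, among genes whose mean was 20 CPM or more. For Spi1 they included Ctsb, a lysosomal protease, with a difference of 0.10, and Mpp1 (0.12). For Irf8 the distances were larger, at 0.24 for Glud1 and Pnp and 0.26 for Gpi1, all enzymes of metabolism. For Gfi1 they were Zbtb8a (0.26), Fut8, which adds fucose to glycans (0.31), and Bco1 (0.32). Klf2 was closest to Clec4a3, a lectin with near-identical relatives whose counts are uncertain (0.10), Btg1 (0.11) and Tyrobp (0.19), Id1 to Khk (0.07), Uba7 (0.09) and Stom (0.19), and Id2 to Cnn2 (0.17), Mtus1 (0.24) and Itgb2 (0.24). Tyrobp and Itgb2 are thus both among the receptor genes above. The 6 points share clones and totals, and no test goes with these distances.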

How the data were processed

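Single-cell RNA-seq of 6 libraries was analysed. Live cells were sorted and the authors deposited whole-number UMI counts per gene and barcode, with Cell Ranger 3.0.1, Scanpy 1.4.6, Seurat 3.0.1 and the mm10 build named in the submitters' processing notes. The study's methods name a later Cell Ranger release and the same build as GRCm38. Each barcode was assigned to a library by its suffix. The table holds 7821 barcodes, of which 5872 had 200 to 6000 genes and at most 10% mitochondrial UMIs, the study's limits. No doublet caller entered the values, and Scrublet, run as an alternative, called 125 cells (2.13%).

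From these counts, UMIs were summed in each library and set against its total as CPM (Python 3.11.15, numpy 2.4.6, scipy 1.17.1, pandas 2.3.3). With 1 library per group no test was made, and a size of 2-fold on log2(CPM + 10) was counted. Intervals are exact 95% Poisson for CPM and exact 95% binomial (Clopper-Pearson) for folds and shares. Near-zero groups were set to a floor of 3 counts. The ratio and call were tested on simulated data. Cells were thinned to 1300 UMIs with a fixed seed. TMM factors came from edgeR 4.0.16 in R 4.3.3.

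The members, the pathway and marker lists and the settings were chosen with earlier results of these data known. All members are named. From the pathway lists, genes past 2-fold at 96 h with at least 50 CPM in a library compared are named, at most 3 per list and arm. The marker lists stand for progenitors, early and late granulocytes, monocytes with macrophages, dendritic cells, eosinophils, mast cells or basophils, megakaryocytes, erythroid cells, lymphoid cells and tissues other than blood. Alternatives were the pseudocount, scaling, size, minimum level, mitochondrial limit, doublets, thinning, marker share, equal weight per cell and the reference library. 1 gene alike to Spi1 is not reported here.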

Additional observations from a re-analysis of the deposited data

Results flagged for a closer look

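Gfi1 had a log2 ratio of 2.05 at 96 h in CAF-1 OFF and of −2.26 at 96 h in HOXA9 OFF, so that it moved in opposite directions in the arms. Each arm is 1 library per time and the difference was not tested.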

How the results depend on the processing

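No paired analysis was possible because each group is 1 library. For the log2 ratios of single factors, 420 alternative values lay within the counting interval of the value reported and 70 moved further. No factor with a ratio past 2-fold changed sign. Counts of factors past 2-fold depended on the setting, and not every change is listed. With a pseudocount of 1 CPM, Id2 passed in CAF-1 OFF at 48 h (1.30) and Klf2 at 96 h (1.57). Klf4 then passed in HOXA9 OFF at 48 and 96 h (1.70 and 3.37). At 48 h of HOXA9 OFF, Zeb2 passed under TMM scaling (1.27), and Irf8 and Egr1 dropped out with 50 CPM (0.79 and 0.36). The counts that moved included these. With a pseudocount of 1 CPM, 1 factor was lower in CAF-1 OFF at 96 h, 1 lower in HOXA9 OFF at 48 h, and 1 higher and 1 lower between the untreated clones. With 50 CPM, 0 were higher in CAF-1 OFF at 48 h, 1 at 96 h and 3 in HOXA9 OFF at 96 h. With TMM and with median-of-ratios scaling alike, 1 was higher in CAF-1 OFF at 48 h and 8 in HOXA9 OFF at 96 h. Equal weight per cell gave 1 lower in HOXA9 OFF at 48 h. A size of 1.5-fold gave 1 lower in CAF-1 OFF at 96 h, 1 lower in HOXA9 OFF at 48 h, 8 higher in HOXA9 OFF at 96 h, and 1 higher and 1 lower between the clones. A size of 4-fold gave 0 higher in CAF-1 OFF at 48 h, 1 at 96 h and 3 in HOXA9 OFF at 48 h. With CAF-1 OFF 0 h as reference, 5 factors were higher in HOXA9 OFF at 48 h, and without the marked cells of HOXA9 OFF 0 h 7 were at 48 h and 4 at 96 h, both settings chosen after seeing the data. In the last, Zeb2 was at 1.00 at 48 h and Id1 at 0.998 at 96 h. Without a minimum level, 9 of the 10 percentages over all genes were smaller beyond their counting interval. Shares of cells depend on the depth set, with 152 alternative values outside the interval of the value reported and 28 inside it, and the most alike genes differed for 5 of 6 factors when Pearson correlation was used. For Klf4, Egr1 and Gfi1 at 96 h of HOXA9 OFF, few UMIs limit the precision.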

Other observations

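Cells with a UMI of Egr1, Zeb2 or Klf2 were set against the rest of their HOXA9 OFF library. At 96 h, 113 cells with an Egr1 UMI had 3958 CPM of the monocyte and macrophage list, against 1574 CPM in 1397 cells without, a fold of 2.51 (2.37 to 2.67). They also had 10767 against 2378 CPM of the eosinophil list, a fold of 4.53 (4.36 to 4.70). Within the unmarked cells, a comparison chosen after seeing the data, both folds were smaller. That of the monocyte list was 1.36 (1.26 to 1.46) and that of the eosinophil list 1.30 (1.14 to 1.49). The 260 cells with a Zeb2 UMI had 3328 CPM of the monocyte list against 1365 CPM in 1250 cells without, a fold of 2.44 (2.32 to 2.56), and about the same eosinophil sum, 3332 against 3244 CPM, but 0.246-fold (0.211 to 0.285) as much within the unmarked cells. Cells with a Klf2 UMI at 48 h, 317 of 1404, had 16528 against 8715 CPM of the late granulocyte list, a fold of 1.90 (1.86 to 1.93). They had 9784 against 21966 CPM of the eosinophil list. Within the unmarked cells these contrasts were 1.33 (1.29 to 1.38) and 0.911 (0.858 to 0.967). At 96 h the late granulocyte sums of cells with and without a Klf2 UMI were close, at 150263 and 140827 CPM.

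The remaining marker lists gave these sums at 0, 48 and 96 h. Mast cell or basophil genes were at 260, 1430 and 4006 CPM in the CAF-1 OFF libraries and at 794, 510 and 79.7 CPM in those of HOXA9 OFF. Megakaryocyte genes were at 45.8, 500 and 2687 CPM and at 35.3, 73.6 and 13.9 CPM. Erythroid genes were at 104, 248 and 322 CPM and at 94.5, 15.1 and 0.567 CPM. Lymphoid genes were at 113, 222 and 364 CPM and at 113, 87.0 and 20.4 CPM. The sum over genes not expressed in blood, which in these libraries is almost all Tnnt2, was at 43.9, 66.0 and 37.8 CPM in the CAF-1 OFF libraries and at 58.5, 8.85 and 0 CPM in those of HOXA9 OFF. None of these was tested.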
